A study of Mus musculus with 75 samples.

Results

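The genes considered here are those encoded in mitochondrial DNA. They were taken as the rows of the deposited count table whose symbol starts with mt-, and 13 of 32245 rows met that rule. All 13 were protein-coding genes: mt-Nd1, mt-Nd2, mt-Nd3, mt-Nd4, mt-Nd4l, mt-Nd5, mt-Nd6, mt-Cytb, mt-Co1, mt-Co2, mt-Co3, mt-Atp6 and mt-Atp8. Mitochondrial rRNA and tRNA genes were not analysed here. All 13 passed the filter on low counts in each of the 3 experiments.

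RNA was sequenced from whole kidneys of adult mice taken 3 days after unilateral ureter obstruction (UUO), in which the ureter of 1 kidney is tied. The obstructed kidney (UUO) was set against the contralateral kidney (CL) in 75 libraries from 12 groups. The ABTAA experiment held mice given human IgG as control (8 CL and 8 UUO libraries) and mice given ABTAA, an antibody that binds ANGPT2 and activates the endothelial receptor TIE2 (7 CL, 7 UUO), in C57BL6/J mice or wild-type mice from the breeding colonies. The Veptp experiment held Veptp WT mice (7 CL, 8 UUO) and Veptp iECKO mice (6 CL, 8 UUO). In Veptp iECKO mice, floxed Veptp (gene symbol Ptprb) is removed by a tamoxifen-inducible Cre that the Cdh5 promoter drives in endothelial cells, and the controls carried that Cre without induction. The libraries labelled Veptp WT UUO outnumber the mice that the study's methods give for that group, and the labels do not resolve this. The Pdgfb experiment held Pdgfb WT mice (4 CL, 4 UUO) and Pdgfb iKO mice (4 CL, 4 UUO), in which a tamoxifen-inducible Cre under an actin promoter acts in the whole body and whose controls carried no Cre. Pdgfb WT CL samples were lost, according to the study's methods, and kidneys of sham-operated mice were used in that group. The labels do not mark which libraries these are. The knockout strains were on a mixed background.

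Mitochondrial DNA is a small circular genome kept in many copies per cell. It is transcribed from both strands into long precursor RNAs by the polymerase POLRMT with TFAM and TFB2M, and the mRNAs, rRNAs and tRNAs are then cut out of these precursors. The encoded proteins are core subunits of the respiratory chain: the mt-Nd genes encode parts of complex I, mt-Cytb of complex III, mt-Co1 to mt-Co3 of complex IV, and mt-Atp6 and mt-Atp8 of the ATP synthase. All other subunits of these complexes are encoded in the nucleus. Kidney tubule cells, above all those of the proximal tubule, are rich in mitochondria and depend on oxidative metabolism for solute transport.

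In the GENCODE vM21 annotation of the mouse build GRCm38 (mm10, the build the labels name), the genes lie close together on chrM, and 4 pairs overlap. mt-Nd1 lies at chrM:2751-3707, mt-Nd2 at chrM:3914-4951, mt-Co1 at chrM:5328-6872, mt-Co2 at chrM:7013-7696, mt-Co3 at chrM:8607-9390, mt-Nd3 at chrM:9459-9806 and mt-Cytb at chrM:14145-15288. mt-Nd4l (chrM:9877-10173) and mt-Nd4 (chrM:10167-11544) share 7 bases on the same strand. mt-Nd5 (chrM:11742-13565) and mt-Nd6 (chrM:13552-14070) share 14 bases on opposite strands, and mt-Nd6 alone lies on the minus strand. mt-Atp8 (chrM:7766-7969) shares its last 43 bases with mt-Atp6 (chrM:7927-8607). How reads inside these bases were counted is not given in the sources used here. The mt-Atp8 sequence is given 5′ to 3′ on the plus strand, with the shared bases in capitals.
mt-Atp8: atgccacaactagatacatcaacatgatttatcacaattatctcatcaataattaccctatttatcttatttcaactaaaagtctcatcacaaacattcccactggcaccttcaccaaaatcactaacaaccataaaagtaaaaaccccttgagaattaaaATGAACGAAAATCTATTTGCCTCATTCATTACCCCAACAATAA

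Part of the mitochondrial genome also has a near-identical copy in the nuclear genome. On the minus strand of chromosome 1, the annotated pseudogenes from Gm28439 (chr1:24611535-24612410) to Gm29216 (chr1:24615706-24616197) carry copies of 7 of the 13 genes. The copies of mt-Co2, mt-Atp6, mt-Co3, mt-Nd3, mt-Nd4l and mt-Nd4 had no mismatch over the bases kept by a local alignment, which leaves out differing bases at an end, as at the start of mt-Nd3 (681 of 681 for mt-Co2, 678 of 678 for mt-Atp6, 783 of 783 for mt-Co3, 342 of 342 for mt-Nd3, 294 of 294 for mt-Nd4l and 876 of 876 for mt-Nd4). Gm29216 matched mt-Co1 at 482 of 483 bases. These nuclear copies were not analysed here. The next lines set 60 bases of 3 genes beside their copy, 5′ to 3′ on the coding strand, with differing bases in capitals, since these genes have a copy and their levels differed between kinds of library.
mt-Co2 (chrM:7013-7072): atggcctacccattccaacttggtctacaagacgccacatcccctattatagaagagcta
Gm28661 (chr1:24615506-24615565, minus strand): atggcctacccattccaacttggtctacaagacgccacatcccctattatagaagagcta
mt-Nd3 (chrM:9459-9518): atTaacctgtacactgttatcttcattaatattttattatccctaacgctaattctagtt
Gm28438 (chr1:24613060-24613119, minus strand): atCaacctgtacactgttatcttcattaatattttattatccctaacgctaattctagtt
mt-Co1 (chrM:6390-6449): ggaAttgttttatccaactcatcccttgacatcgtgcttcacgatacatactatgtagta
Gm29216 (chr1:24616129-24616188, minus strand): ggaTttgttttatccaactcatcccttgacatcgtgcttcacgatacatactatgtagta
The mt-Co2 window was identical to its copy, and each of the other two windows differed at 1 base. Of all windows of 50 bases in a gene, the share that also occurs in a nuclear transcript of the annotation was 100% in mt-Co2, 99.9% in mt-Co3, 99.5% in mt-Atp6, 98.8% in mt-Nd4l and 98.0% in mt-Nd3. It was 62.2% in mt-Nd4 and 51.1% in mt-Co1, 8.19% in mt-Nd2 and 7.61% in mt-Nd5, and no window of mt-Nd1, mt-Cytb, mt-Nd6 or mt-Atp8 was shared. Only annotated transcripts were searched. The starts of mt-Co2 and mt-Atp6, between which mt-Atp8 begins, lie 914 bases apart on chrM, and the starts of their copies also lie 914 bases apart on chromosome 1. Whether an unannotated copy of mt-Atp8 lies there was not tested.

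Libraries held 172827 to 2341800 counts (median 757897), of which 3748 to 53930 came from the 13 genes. Counts per gene and library ran from 488 to 13463 for mt-Cytb and from 837 to 16177 for mt-Co1, but from 2 to 77 for mt-Nd4l and from 12 to 161 for mt-Atp8. The library names took 2 forms, joined names such as A6 (45 libraries) and split names such as P_5 (30), and the labels do not say what the form stands for. The split names began with N, O or P in the ABTAA experiment (14 libraries) and with G or H in the Veptp experiment (16), while the Pdgfb experiment had none. Each form held CL and UUO libraries of each group it occurred in. The rRNA-like rows Gm42418 and AY036118 together took 5.41 to 21.8% of counts in joined names, 3.89 to 5.91% in N, O and P names and 0.325 to 0.778% in G and H names. Because these libraries stand apart, the comparisons of the 13 genes in the ABTAA and Veptp experiments are given for all libraries and within each form. The nuclear lists at the end are given for all libraries together.

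The deleted genes were checked against the labels. Pdgfb, which encodes the growth factor PDGFB, measured 4.4, 7.4, 9.8 and 19.9 CPM in Pdgfb WT CL and 16.6, 16.9, 17.5 and 24.9 CPM in Pdgfb iKO CL, where CPM is the count scaled to library size. It measured 43.2, 54.2, 56.5 and 57.8 CPM in Pdgfb WT UUO and 33.4, 35.9, 38.4 and 40.6 CPM in Pdgfb iKO UUO. The libraries labelled Pdgfb iKO were therefore lower than WT in the obstructed kidney only, and neither difference passed the test (edgeR, log2 0.78 ± 0.33 SE in CL, adjusted p = 1.0, and -0.47 ± 0.21 in UUO, adjusted p = 0.12). The difference between the responses of Pdgfb to UUO did pass (log2 -1.26 ± 0.39, adjusted p = 0.046). Ptprb ranged from 26.2 to 93.5 CPM in Veptp WT UUO (median 41.9) and from 12.7 to 66.1 CPM in Veptp iECKO UUO (median 28.1), a log2 difference of -0.69 ± 0.33 that did not pass (adjusted p = 1.0). In CL it ranged from 28.5 to 84.1 CPM (median 61.5) in Veptp WT and from 26.9 to 45.2 CPM (median 33.7) in Veptp iECKO, a log2 difference of -0.63 ± 0.36 (adjusted p = 1.0). The CL values of Pdgfb rest on 4 to 19 counts per library in Pdgfb WT and 7 to 17 in Pdgfb iKO. In other assays the study reported lower Pdgfb in both kidneys of Pdgfb iKO mice and less VEPTP protein in Veptp iECKO mice. Genotypes are given below as labelled.

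The share of a library's counts that came from the 13 genes was lower in UUO than in CL on average in all 6 genotype or treatment groups. It is given as a description with no test, since it sums over the members. In the Pdgfb WT mice it was 2.91, 3.32, 4.02 and 4.03% in the 4 CL libraries and 1.23, 1.27, 1.56 and 1.80% in the 4 UUO libraries, so the groups did not overlap. In the Pdgfb iKO mice it was 2.83, 3.56, 3.72 and 4.11% in CL and 1.94, 2.19, 2.79 and 3.61% in UUO, and the highest UUO library lay within the CL range. The IgG mice had 2.77 to 5.12% (median 4.325) in CL and 1.62 to 3.63% (median 2.51) in UUO, and the ABTAA mice 2.83 to 5.05% (median 3.96) and 1.59 to 2.92% (median 2.38), with overlap in both. The Veptp WT mice had 2.34 to 3.31% (median 2.78) in CL and 1.07 to 2.80% (median 2.05) in UUO. The Veptp iECKO mice had 3.38 to 4.18% (median 3.63) and 1.62 to 3.27% (median 2.29), with no overlap.

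**Figure D1:**
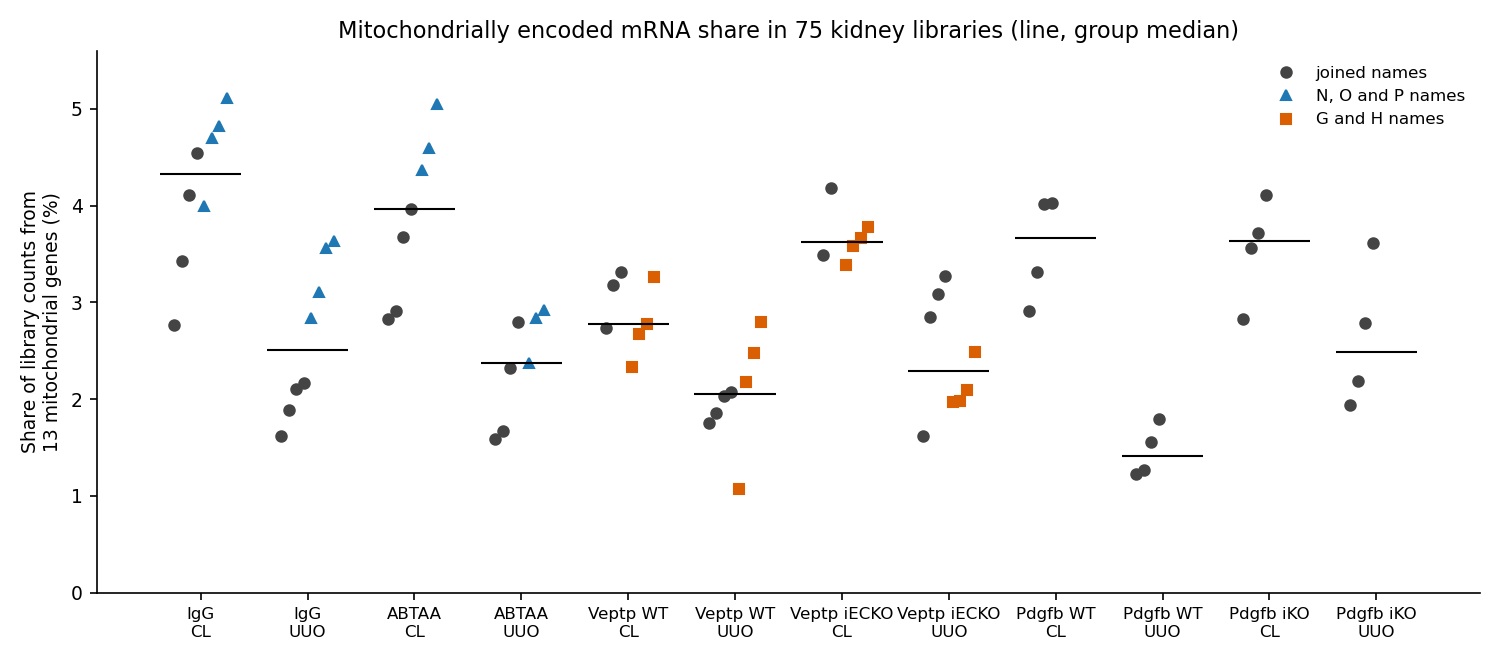
Share of each library's counts that came from the 13 mitochondrially encoded genes (y axis, %), by group (x axis), with 1 point per library, its shape showing the form of the library name, and a line at the group median. The 4 Pdgfb WT UUO libraries, at 1.23 to 1.80%, lie below all 4 of their CL libraries, and within the ABTAA experiment the N, O and P names lie wholly above the joined names in IgG UUO and ABTAA CL and overlap them in IgG CL and ABTAA UUO.

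Within a name form the kidneys separated more often. The groups there held only 2 to 4 libraries, and smaller groups separate more easily. Among IgG libraries with joined names the highest UUO share was 2.17% and the lowest CL share 2.77%, and among those with split names 3.63% and 4.00%. The ABTAA libraries did not overlap within either form (2.79% against 2.83%, and 2.92% against 4.36%), nor did the Veptp iECKO libraries (3.27% against 3.49%, and 2.48% against 3.38%). The Veptp WT libraries with joined names did not overlap (2.08% against 2.74%), whereas those with split names did (2.80% against 2.34%). In bulk RNA, fewer cells of a type and less RNA per cell cannot be told apart. Markers of the proximal tubule moved with the kidney in the same libraries: all 10 listed markers (among them Lrp2, Cubn and Slc34a1) were detected in every group. Their summed level ran from 7200.5 to 13664 CPM in CL and from 3697 to 7250.2 CPM in UUO in the ABTAA experiment, from 9198 to 13723 CPM and from 3870.0 to 9767 CPM in the Veptp experiment, and from 9033 to 11836 CPM and from 2885 to 9975 CPM in the Pdgfb experiment. The 6 leukocyte markers summed to 61.7 to 265 CPM in CL and 277 to 885 CPM in UUO in the ABTAA experiment, to 38.4 to 411 CPM and 217 to 780 CPM in the Veptp experiment, and to 60.0 to 169 CPM and 307 to 658 CPM in the Pdgfb experiment. The 4 fibroblast markers (Col1a1, Col3a1, Pdgfrb and Dcn) summed to 64.5 to 163 CPM in CL and 519 to 1135 CPM in UUO in the ABTAA experiment, to 70.1 to 456 CPM and 186 to 1218 CPM in the Veptp experiment, and to 67.9 to 176 CPM and 226 to 933 CPM in the Pdgfb experiment. The 2 markers of the distal convoluted tubule (Slc12a3 and Pvalb) summed to 503 to 900.5 CPM in CL and 113 to 489 CPM in UUO in the ABTAA experiment, to 383.9 to 1020.1 CPM and 180.3 to 624 CPM in the Veptp experiment, and to 539.8 to 853 CPM and 161 to 534 CPM in the Pdgfb experiment. The 2 markers of the thick ascending limb (Umod and Slc12a1) summed to 3823 to 8613 CPM in CL and 1937 to 4269.9 CPM in UUO in the ABTAA experiment, to 2647 to 6427 CPM and 1094 to 5004 CPM in the Veptp experiment, and to 3394 to 6403 CPM and 1855 to 4300.2 CPM in the Pdgfb experiment. The 4 collecting duct markers summed to 203 to 609.5 CPM in CL and 65.5 to 373 CPM in UUO in the ABTAA experiment, to 329.7 to 1518 CPM and 140.02 to 370.3 CPM in the Veptp experiment, and to 335 to 515 CPM and 119 to 320.3 CPM in the Pdgfb experiment. Endothelial and podocyte markers overlapped between CL and UUO in every group. In the ABTAA experiment the 4 endothelial markers summed to 127 to 279 CPM in CL and 134 to 324 CPM in UUO. The 2 podocyte markers summed there to 37.2 to 92.6 CPM and 20.9 to 89.9 CPM. The part of these cell types in the mitochondrial shares was not tested.

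The Pdgfb WT kidneys gave the largest UUO differences of the 6 groups by the median of the 13 genes (log2 fold change -1.48). Their CL group includes the unmarked kidneys of sham-operated mice. All 13 genes were lower in UUO than in CL by edgeR's quasi-likelihood test (adjusted p under 0.05), where 19.4% of all genes tested were called lower, and all 13 had groups that did not overlap, against 17.3% of all genes tested. Without TMM scaling the share of all genes called lower was smaller in each of the 6 UUO comparisons (1166 genes in place of 2119 here), while the number of the 13 genes called was the same in each. The complex I gene mt-Nd4 measured 2934, 3502, 4112 and 4303 CPM in CL and 855, 943, 1172 and 1407 CPM in UUO. Every UUO library lay below every CL library, with a log2 fold change of -1.76 ± 0.24 (SE) and an adjusted p of 2.1e-06.

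Among the other complex I genes in these Pdgfb WT mice, the log2 fold change was -1.73 ± 0.21 for mt-Nd2, -1.64 ± 0.23 for mt-Nd1, -1.48 ± 0.19 for mt-Nd4l, -1.46 ± 0.23 for mt-Nd5, -1.397 ± 0.193 for mt-Nd3 and -1.27 ± 0.21 for mt-Nd6, the gene of the minus strand. The complex III gene mt-Cytb, which encodes cytochrome b, measured 3936, 4792, 5669 and 6730 CPM in CL and 1274, 1433, 1632 and 1962 CPM in UUO, a log2 fold change of -1.75 ± 0.22 (adjusted p = 7.2e-07). Of the catalytic subunits of complex IV, mt-Co1 measured 5364, 8389, 9417 and 13708 CPM in CL and 2135, 2337.5, 2640 and 3098 CPM in UUO, a log2 fold change of -1.85 ± 0.26 (adjusted p = 3.2e-06). mt-Co2 and mt-Co3 had the smallest fold changes of the 13 genes in this comparison: mt-Co2 measured 145, 162, 191 and 199 CPM in CL and 80.9, 88.4, 97.0 and 100.05 CPM in UUO (log2 -0.93 ± 0.14, adjusted p = 6.2e-06), and mt-Co3 had a log2 fold change of -1.11 ± 0.14. The ATP synthase genes mt-Atp8 and mt-Atp6 had log2 fold changes of -1.52 ± 0.22 and -1.19 ± 0.14. All 13 calls were kept without any 1 of the 16 libraries of the experiment.

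**Figure D2:**
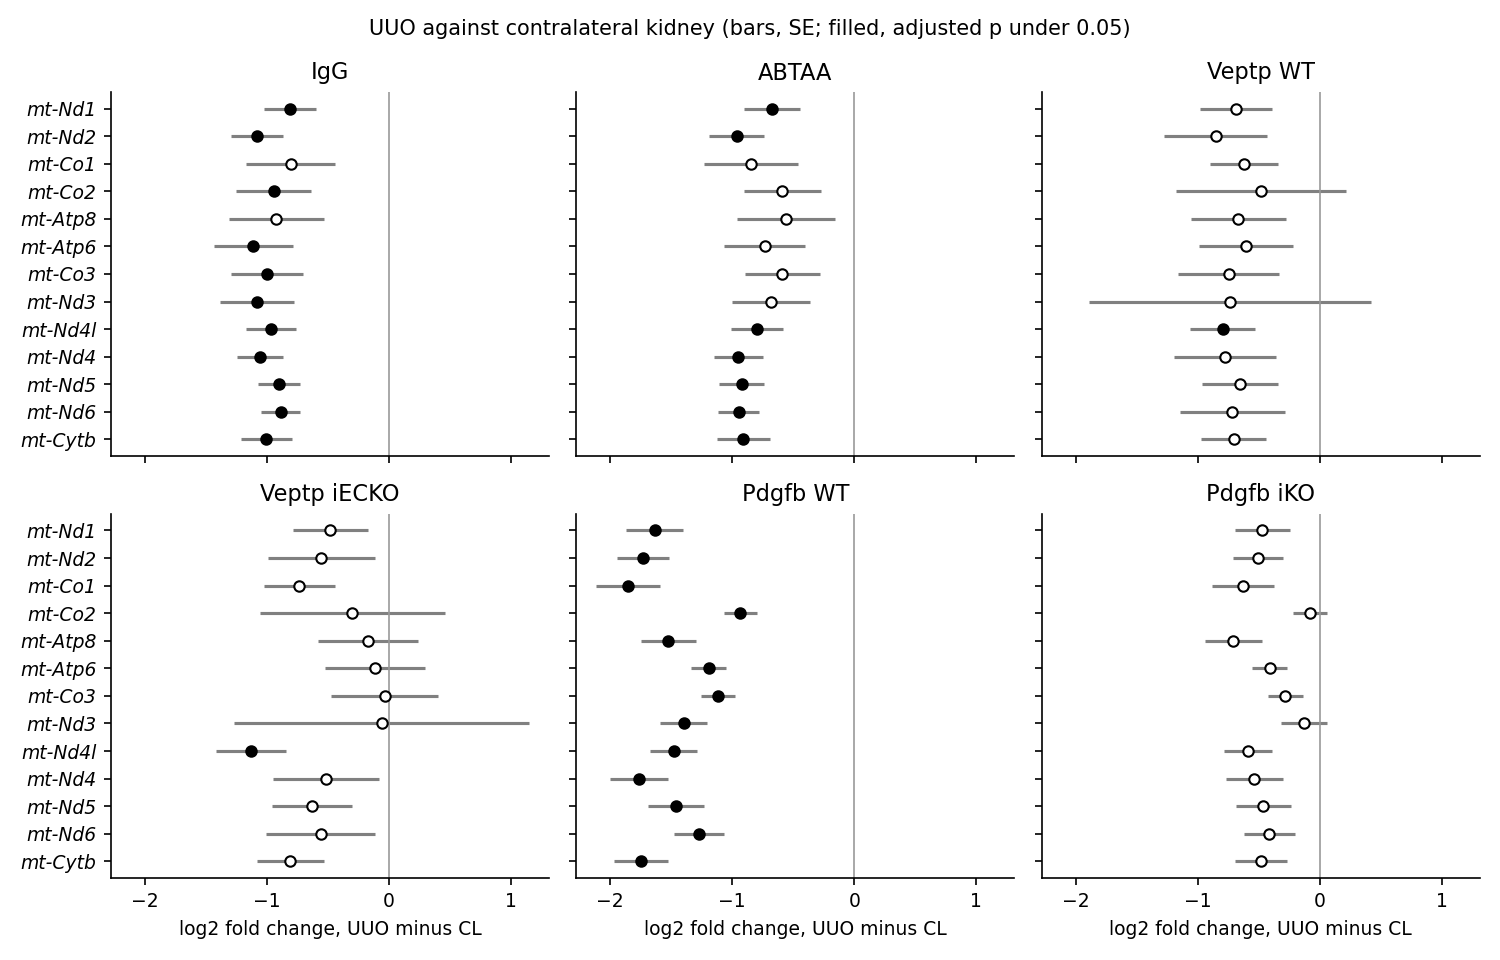
log2 fold change of UUO against CL (x axis, from edgeR, bars are SE) for each of the 13 genes (y axis) in the 6 genotype or treatment groups, with filled points where the adjusted p was under 0.05. All 13 points are filled in Pdgfb WT, 11 in IgG, 7 in ABTAA, 1 each in Veptp WT and Veptp iECKO and none in Pdgfb iKO.

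In the Pdgfb iKO mice the same comparison gave smaller values, with a median log2 fold change of -0.47. None of the 13 genes passed at an adjusted p under 0.05 with edgeR (2.40% of all genes were called lower), while 9 had an unadjusted p under 0.05. DESeq2 and edgeR's exact test also called none, with 10 and 8 of the 13 at an unadjusted p under 0.05. mt-Nd4 measured 2804, 3736, 4204 and 4606 CPM in CL and 1580, 1991, 2833 and 4230.2 CPM in UUO (log2 -0.53 ± 0.23, adjusted p = 0.20). The groups overlapped for all 13 genes (5.13% of all genes did not overlap), and the UUO library with the highest mitochondrial share, replicate 1, was the highest of its group for 10 of them. Without that library 8 of the 13 genes were called lower, and 1 was called without Pdgfb WT CL replicate 1 or 2, Pdgfb iKO CL replicate 4 or Pdgfb iKO UUO replicate 3. The share of all genes called lower in these fits is not given here. mt-Co2 measured 157, 163, 181 and 187 CPM in CL and 133, 158, 180.4 and 187 CPM in UUO, a log2 fold change of -0.08 ± 0.14, the smallest of the 13.

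The obstructed kidneys of the Pdgfb iKO mice were compared with those of the Pdgfb WT mice directly. All 13 genes were higher in the libraries labelled Pdgfb iKO (edgeR, adjusted p under 0.05), where 12.0% of all genes tested were called higher. All 13 had groups that did not overlap, against 12.7% of all genes tested, and the median log2 difference was 1.09. mt-Nd3, a complex I subunit, measured 440, 486, 560.4 and 713 CPM in Pdgfb WT UUO and 1139, 1141, 1261 and 1908 CPM in Pdgfb iKO UUO, the largest log2 difference of the 13 at 1.30 ± 0.19 (adjusted p = 3.2e-05). mt-Nd4 followed at 1.27 ± 0.24, mt-Nd2 at 1.24 ± 0.21, mt-Cytb at 1.18 ± 0.22 and mt-Nd1 at 1.17 ± 0.23. mt-Co1 was higher by 1.03 ± 0.26 and mt-Atp8 by 0.83 ± 0.23, with adjusted p of 0.0056 and 0.013, the largest of the 13. mt-Co2 (0.83 ± 0.14), mt-Co3 (0.84 ± 0.14) and mt-Atp6 (0.84 ± 0.14) had the smallest differences together with mt-Atp8. The 13 calls were kept without any 1 library.

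No difference was detected between the CL groups of this experiment, of which Pdgfb WT CL includes kidneys of sham-operated mice. None of the 13 genes passed in Pdgfb iKO CL against Pdgfb WT CL with edgeR, DESeq2 or the exact test, none had an unadjusted p under 0.05 by any of the 3, and 0% of all genes were called. Their log2 differences ran from -0.20 ± 0.25 for mt-Co1 to 0.19 ± 0.19 for mt-Nd4l. The difference between the responses to UUO, tested as an interaction, passed for 11 of the 13 genes (6.66% of all genes were called higher), all toward a smaller fall in the libraries labelled Pdgfb iKO. This test and the direct comparison share their UUO libraries. It was largest for mt-Nd3 (log2 1.27 ± 0.27, adjusted p = 0.0036) and mt-Cytb (1.27 ± 0.31, adjusted p = 0.0096). It did not pass for mt-Nd6 (0.86 ± 0.29, adjusted p = 0.067), which passed when any 1 of 3 libraries was left out, or mt-Atp8 (0.81 ± 0.32, adjusted p = 0.12). The calls of mt-Co1, mt-Nd4l and mt-Nd5, with adjusted p of 0.033, 0.042 and 0.047, were lost without any 1 of 9, 11 and 10 of the 16 libraries, and without TMM scaling 5 of the 13 genes were called. The proximal tubule markers summed to 2885, 3202, 3322 and 3611 CPM in Pdgfb WT UUO and 4809, 7549, 7862 and 9975 CPM in Pdgfb iKO UUO, with no overlap. The iKO UUO library with the highest marker sum was also the one with the highest mitochondrial share, and other lists were also without overlap in this comparison. In Pdgfb WT UUO and Pdgfb iKO UUO, fibroblast markers summed to 665 to 933 CPM and 226 to 614 CPM, and leukocyte markers to 435 to 658 CPM and 307 to 382 CPM. Markers of the thick ascending limb summed to 1855 to 2221 CPM and 2837 to 4300.2 CPM, of the distal convoluted tubule to 161 to 187 CPM and 395 to 534 CPM, and of the collecting duct to 119 to 215 CPM and 241 to 320.3 CPM. Endothelial markers (167 to 224 CPM and 117 to 195 CPM) and podocyte markers (48.3 to 71.4 CPM and 46.7 to 74.2 CPM) overlapped. The 4 haemoglobin rows that mark blood summed to 316 to 419 CPM and 555 to 829 CPM, without overlap, while fat markers overlapped (3.57 to 11.3 CPM and 0 to 115 CPM). The rRNA-like rows took 5.41 to 7.34% and 7.67 to 10.7% of counts, and the TMM factors were 1.15 to 1.23 and 0.888 to 1.02, both also without overlap. With the rRNA-like rows taken out of the totals, the mitochondrial share was 1.30 to 1.91% and 2.15 to 4.05%, again without overlap. The part of the marker lists and TMM factors in the differences was not tested.

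**Figure D3:**
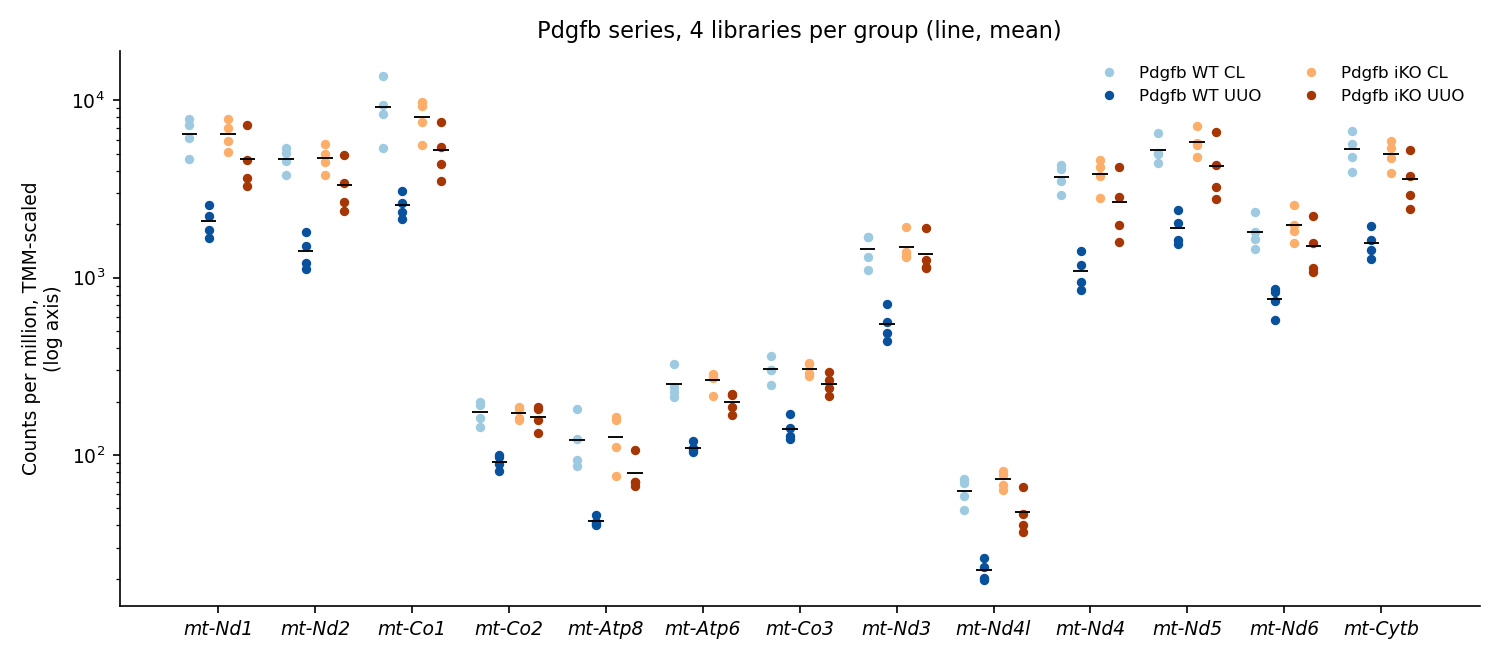
Level of each of the 13 genes (x axis) in the 16 libraries of the Pdgfb experiment (y axis, CPM scaled with TMM factors, log axis), with 1 point per library and a line at the group mean. For every gene the 4 Pdgfb WT UUO points lie below the 4 points of each of the other groups.

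In the IgG mice 11 of the 13 genes were lower in UUO (edgeR, adjusted p under 0.05), where 18.4% of all genes tested were called lower, with a median log2 fold change of -0.96. mt-Nd4 ranged from 2327 to 5959 CPM in CL (median 3679) and from 1297 to 2266 CPM in UUO (median 1944). These ranges did not overlap, and the log2 fold change was -1.05 ± 0.19 (adjusted p = 3.2e-05). mt-Nd2 and mt-Nd6 were the other 2 genes whose groups did not overlap, 3 of 13 in all, against 5.26% of all genes tested. mt-Cytb ranged from 3816 to 8594 CPM in CL (median 5816) and from 1815 to 4026 CPM in UUO (median 2904), a log2 fold change of -1.002 ± 0.207 (adjusted p = 0.00021). The remaining called genes were mt-Atp6 (-1.11 ± 0.32), mt-Nd3 (-1.08 ± 0.30), mt-Co3 (-1.001 ± 0.294), mt-Nd4l (-0.96 ± 0.21), mt-Co2 (-0.94 ± 0.31), mt-Nd5 (-0.90 ± 0.17) and mt-Nd1 (-0.81 ± 0.21). mt-Co1 ranged from 6850 to 20876 CPM in CL (median 14210.5) and from 2764 to 15103 CPM in UUO (median 7477), and it did not pass (-0.81 ± 0.36, adjusted p = 0.083), nor did mt-Atp8 (-0.92 ± 0.39, adjusted p = 0.066). The call of mt-Co2 was lost without CL replicate 2, while mt-Co1 was called without UUO replicate 5 and mt-Atp8 without any 1 of 7 libraries.

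In the ABTAA-treated mice 7 of the 13 genes were lower in UUO, where 12.5% of all genes tested were called lower, with a median log2 fold change of -0.80. They were 6 complex I genes and mt-Cytb. mt-Nd6 ranged from 1499 to 2471 CPM in CL (median 1539) and from 744 to 1490.2 CPM in UUO (median 865), and it was the only member whose groups did not overlap, 1 of 13 against 2.92% of all genes tested (log2 -0.95 ± 0.17, adjusted p = 6.3e-05). mt-Nd2 had a log2 fold change of -0.96 ± 0.22, mt-Nd4 of -0.95 ± 0.20, mt-Nd5 of -0.92 ± 0.18, mt-Cytb of -0.91 ± 0.22, mt-Nd4l of -0.80 ± 0.21 and mt-Nd1 of -0.68 ± 0.23. The 6 genes that did not pass had log2 fold changes from -0.56 ± 0.40 (mt-Atp8) to -0.85 ± 0.39 (mt-Co1). The call of mt-Nd1 was lost without UUO replicate 3, while mt-Nd3 was called without UUO replicate 1 and mt-Atp6 without UUO replicate 1 or 2 or CL replicate 5.

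Within the 2 name forms, the IgG calls numbered 13 of 13 among joined names (12.6% of all genes called lower) and 12 of 13 among split names (15.4%). The ABTAA calls numbered 4 (4.38%) and 10 (12.9%). With the form of the name in the fit, 13 genes were called in IgG (21.6%) and 12 in ABTAA (16.9%).

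In the Veptp experiment mt-Nd4l alone passed in all libraries together, in Veptp WT (where 8.38% of all genes were called lower) and in Veptp iECKO (3.47%). mt-Nd4l, a small complex I subunit, ranged from 37.0 to 55.6 CPM in Veptp WT CL (median 42.5) and from 14.7 to 49.1 CPM in UUO (median 24.3), with overlap and a log2 fold change of -0.80 ± 0.27 (adjusted p = 0.035). In Veptp iECKO it ranged from 34.9 to 99.9 CPM (median 51.0) and from 11.4 to 53.5 CPM (median 23.7), with a log2 fold change of -1.13 ± 0.29 (adjusted p = 0.011). The gene rests on 2 to 77 counts per library, and its call in Veptp WT was lost without any 1 of CL replicates 1 and 2 or UUO replicates 5, 6, 7 and 8. With UUO replicate 6 or 7 left out mt-Cytb was called in its place, and without Veptp iECKO CL replicate 2 mt-Cytb was called beside mt-Nd4l there. No member's groups failed to overlap, against 2.30% of all genes in Veptp WT and 0.512% in Veptp iECKO. The median log2 fold change of the 13 genes was -0.71 in Veptp WT and -0.51 in Veptp iECKO, and the SE reached 1.15 and 1.21 for mt-Nd3, whose level depended on the form of the name.

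With the form of the name in the fit, all 13 genes were lower in UUO in Veptp WT (17.3% of all genes called lower) and in Veptp iECKO (10.8%). In that fit mt-Nd4 had a log2 fold change of -0.80 ± 0.19 in Veptp WT and -0.87 ± 0.20 in Veptp iECKO, and mt-Nd3 of -0.84 ± 0.28 and -1.08 ± 0.29. Among joined names 5 genes were called in Veptp WT (6.69%) and none in Veptp iECKO (0%), where the CL group held 2 libraries and 4 genes had an unadjusted p under 0.05. Among split names 8 were called in Veptp WT (12.3%) and 13 in Veptp iECKO (11.2%). In these Veptp WT libraries mt-Atp6 (-1.31 ± 0.18) and mt-Co3 (-1.30 ± 0.19) were called, whereas mt-Co1 (-0.39 ± 0.29, adjusted p = 0.36) and mt-Cytb (-0.53 ± 0.26, adjusted p = 0.14) did not pass.

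None of the 13 genes passed the adjusted threshold between ABTAA and IgG or between Veptp iECKO and Veptp WT. In all libraries together, with edgeR, none of the 13 genes passed in UUO, in CL or in the response to UUO in either experiment (0% of all genes were called), and none had an unadjusted p under 0.05. DESeq2 called none, with 1 gene at an unadjusted p under 0.05 in each of Veptp iECKO against Veptp WT in UUO and in CL. The exact test, run for the group comparisons and not for the responses, also called none, with 1 gene at an unadjusted p under 0.05 in the Veptp CL comparison. In UUO the log2 differences of ABTAA against IgG ran from -0.23 ± 0.37 (mt-Co1) to 0.34 ± 0.31 (mt-Nd3), and those of Veptp iECKO against Veptp WT, where no member was without overlap (0.0168% of all genes were), from -0.06 ± 0.69 (mt-Co2) to 0.51 ± 0.41 (mt-Nd4).

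Among joined names 6 genes had an unadjusted p under 0.05 in Veptp iECKO UUO against Veptp WT UUO, all higher: mt-Co1 (log2 0.79 ± 0.27), mt-Nd1 (0.78 ± 0.27), mt-Nd4 (0.73 ± 0.26), mt-Cytb (0.70 ± 0.26), mt-Nd2 (0.64 ± 0.26) and mt-Nd6 (0.44 ± 0.21). None passed, the lowest adjusted p being 0.28. In the same joined-name libraries of Veptp WT UUO and Veptp iECKO UUO, proximal tubule markers summed to 3870.0 to 6796 CPM and 7443 to 9767 CPM, fibroblast markers to 984 to 1218 CPM and 186 to 752 CPM, and leukocyte markers to 524 to 779.5 CPM and 217 to 518 CPM, each without overlap. In the split-name libraries the fibroblast markers did not overlap (713 to 1040.3 CPM and 320.0 to 697 CPM), and the proximal tubule (4921 to 6318 CPM and 4209.6 to 7074 CPM) and leukocyte markers (449 to 569 CPM and 317 to 611 CPM) did. Their part in these differences was not tested. Among split names the same genes had log2 differences of -0.01 ± 0.29, 0.06 ± 0.25, -0.12 ± 0.22, 0.00 ± 0.26, 0.08 ± 0.24 and -0.15 ± 0.18, and only mt-Atp8 had an unadjusted p under 0.05 (0.43 ± 0.20, adjusted p = 0.80). Whether the forms differ was not tested. With the name form in the fit, mt-Nd1 (0.42 ± 0.20) and mt-Atp8 (0.36 ± 0.17) in UUO, mt-Co1 (0.51 ± 0.24) and mt-Co3 (-0.38 ± 0.16) in CL and mt-Co3 in the response (0.51 ± 0.22) had an unadjusted p under 0.05, and none passed. Within forms, 1 gene had such a p in CL (mt-Co3 at -0.61 ± 0.24 in joined names, mt-Co1 at 0.62 ± 0.29 in split names) and 1 in the response (mt-Co3, at 0.63 ± 0.30 and 0.55 ± 0.27).

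For ABTAA against IgG no member had an unadjusted p under 0.05 within either form, in UUO, in CL or in the response. In UUO the log2 differences ran from -0.08 to 0.31 in joined names and from -0.35 to 0.24 in split names, in CL from -0.42 to 0.06 and from -0.20 to 0.33, and in the response from 0.06 to 0.64 and from -0.34 to 0.34. With the name form in the fit, mt-Co3 alone had an unadjusted p under 0.05, in the response (0.40 ± 0.19, adjusted p = 0.86).

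The makeup of the mitochondrial counts differed between the forms of the library name. mt-Co1 made up 18.0 to 29.8% of the mitochondrial counts of a library (median 20.2) in joined names, 35.9 to 44.1% (median 39.9) in N, O and P names and 24.2 to 34.5% (median 30.7) in G and H names. mt-Cytb made up 12.2 to 14.6%, 10.9 to 14.2% and 24.0 to 26.4%. mt-Nd3 made up 3.37 to 7.63% (median 4.55), 1.33 to 2.50% (median 1.99) and 0.0816 to 0.338% (median 0.219), so that the 3 kinds of library did not overlap for this gene. The 7 mt-Nd genes together made up a median of 64.4%, 46.4% and 43.2%.

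**Figure D4:**
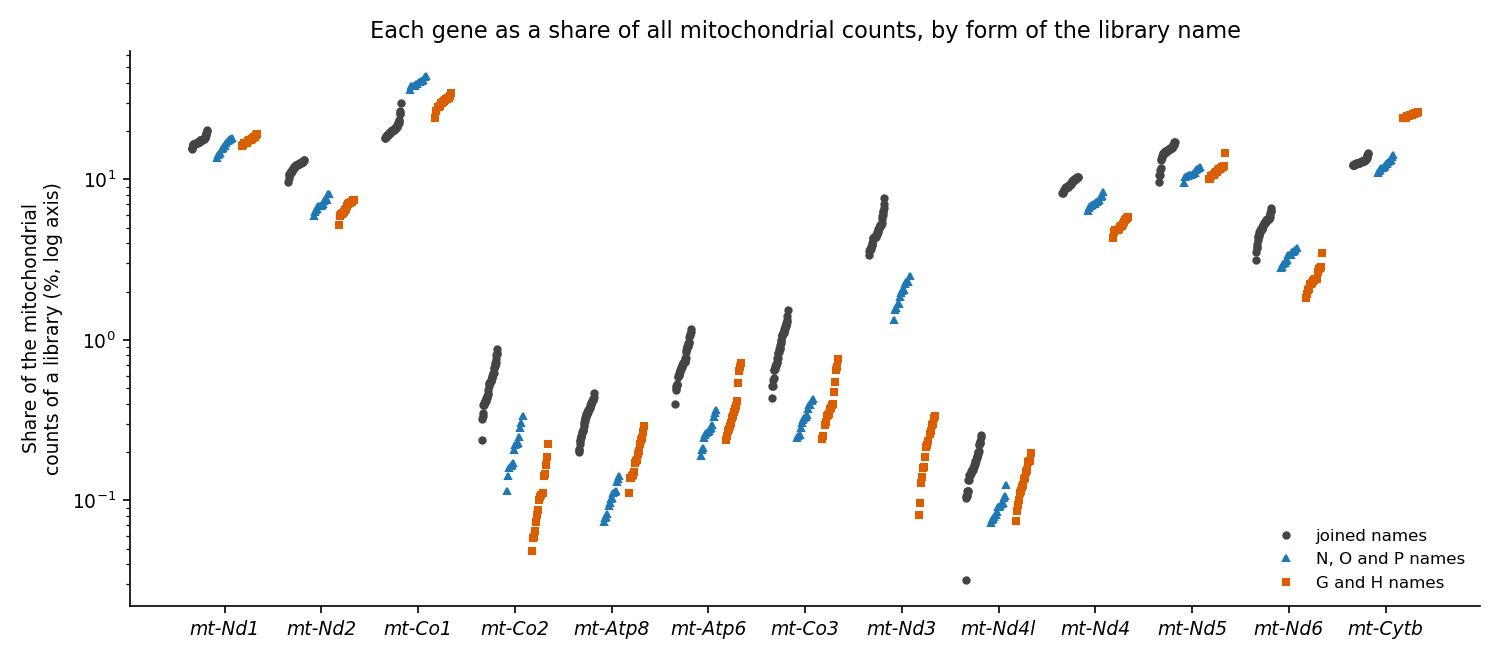
Share of each gene (x axis) in all mitochondrial counts of a library (y axis, %, log axis), with 1 point per library and the shape and colour showing the form of the library name. The 3 kinds of library do not overlap for mt-Nd3, which takes 3.37 to 7.63% of mitochondrial counts in joined names and 0.0816 to 0.338% in G and H names.

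Between kidneys of the same form, the ratio of a gene's mean share in UUO to that in CL ran over the 13 genes from 0.931 to 1.24 in joined names, from 0.902 to 1.29 in N, O and P names and from 0.770 to 1.08 in G and H names. These ratios are descriptive.

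The form of the name was also tested, as a term in the fit with the 4 groups. In the ABTAA experiment, mt-Co1 was higher in split names (log2 1.25 ± 0.15, adjusted p = 3.2e-08), 1 of the 13 genes against 20.6% of all genes called higher. There 8 of the 13 were lower, against 19.8% of all genes called lower: mt-Atp8 (-1.39 ± 0.16), mt-Atp6 (-1.16 ± 0.13), mt-Co3 (-1.13 ± 0.10), mt-Co2 (-1.02 ± 0.14), mt-Nd3 (-0.97 ± 0.14), mt-Nd4l (-0.46 ± 0.13), mt-Nd2 (-0.43 ± 0.13) and mt-Nd6 (-0.26 ± 0.10). In the Veptp experiment 11 of the 13 were lower (28.4% of all genes called lower), the largest being mt-Nd3 at -5.21 ± 0.22 (adjusted p = 1.5e-20) and mt-Co2 at -2.74 ± 0.16 (adjusted p = 3.1e-17). mt-Cytb was higher (0.39 ± 0.15, adjusted p = 0.020, 34.0% of all genes called higher), and mt-Co1 had a log2 difference of 0.00 ± 0.16. What the form of the name stands for was not tested.

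Set against length, the levels of the 13 genes ranged widely. Duplicate reads were removed by molecular identifiers, so counts need not rise with gene length and division by length can favour short genes. In joined names the median level per kilobase (CPM per kb) was 4835 for mt-Nd1, 3702 for mt-Co1, 3485 for mt-Nd3, 3367 for mt-Nd2, 3237 for mt-Cytb, 2650.0 for mt-Nd6, 2244 for mt-Nd5 and 1929 for mt-Nd4. It was 423 for mt-Atp8, 299 for mt-Co3, 291 for mt-Atp6, 214 for mt-Co2 and 144 for mt-Nd4l. The 5 genes named last thus lay below the other 8. In G and H names mt-Nd3 joined the low genes, at 159 per kb, while mt-Cytb was at 5797 and mt-Co1 at 4955.

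Of the 5 genes with over 90% of their windows in a nuclear transcript, mt-Co2, mt-Co3, mt-Atp6 and mt-Nd4l were among the low genes in all 3 kinds of library and mt-Nd3 in G and H names alone. mt-Atp8, which shares no window with an annotated nuclear transcript, was low in all 3. Whether it has an unannotated nuclear copy was not tested. The 5 genes had a median of 291 per kb in joined names, 146 in N, O and P names and 118 in G and H names, and the 5 genes other than mt-Atp8 with under 10% had 3237, 2707 and 1667. The treatment of reads that match several places is not given in the sources used here, and its part in these levels was not tested.

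**Figure D5:**
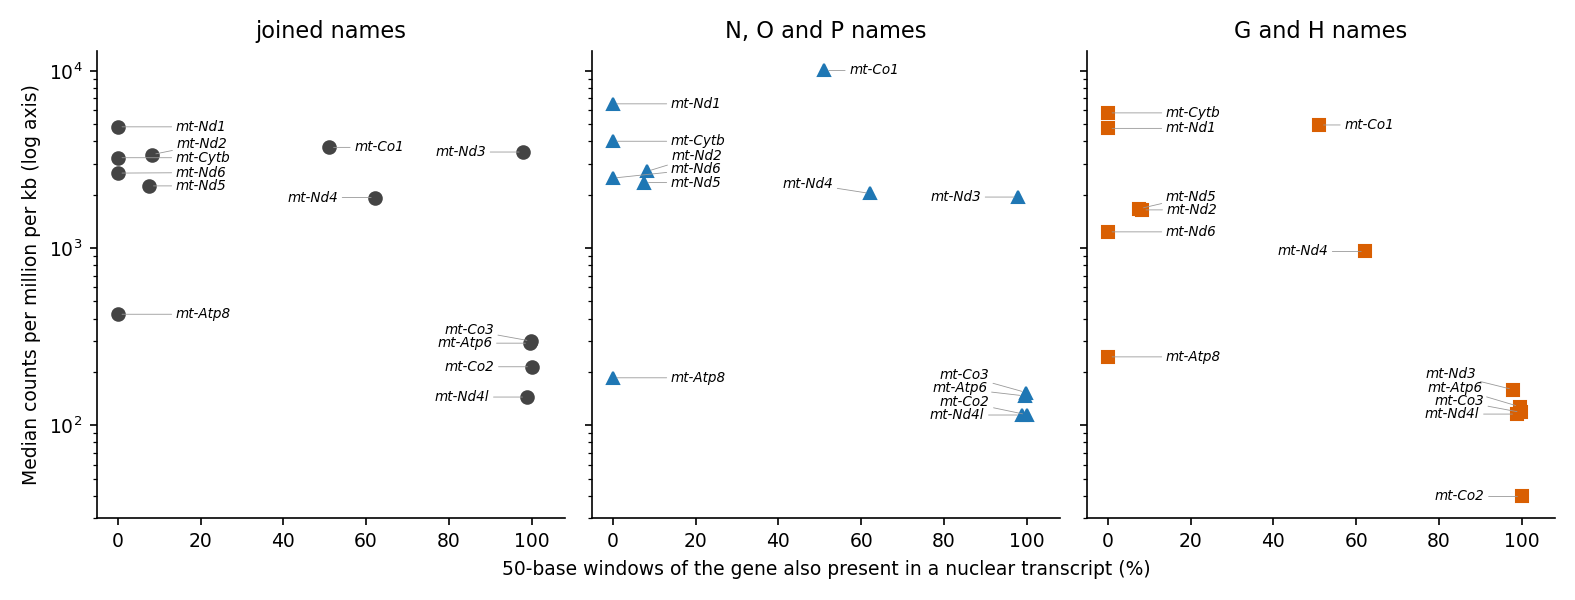
Median level per kilobase (y axis, CPM per kb, log axis) against the share of a gene's 50-base windows that also occur in a nuclear transcript (x axis, %), with 1 point per gene and a panel for each kind of library name. mt-Co2, mt-Co3, mt-Atp6 and mt-Nd4l sit at the lower right in every panel, mt-Nd3 at the upper right in the first 2 panels and the lower right in the G and H names, and mt-Atp8 is low at 0%, a value that covers annotated transcripts only.

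The nuclear partners of these genes were taken as 70 nuclear-encoded subunits of complexes I, III, IV and V, all of them tested. In Pdgfb WT mice 69 of 70 were lower in UUO (19.4% of all genes), with a median log2 fold change of -1.10 against 0.04 for all genes tested. In Pdgfb iKO mice 6 of 70 were lower (2.40% of all genes), with a median of -0.21. All 70 were higher in Pdgfb iKO UUO than in Pdgfb WT UUO (12.0% of all genes), with a median of 0.87, and 66 passed in the interaction (6.66%). Uqcrfs1, the iron-sulfur protein of complex III, had the lowest adjusted p in that direct comparison (log2 1.16 ± 0.14, adjusted p = 2.4e-06), and Cyc1, cytochrome c1, the next (0.98 ± 0.12, adjusted p = 3.2e-06). In IgG mice 61 of 70 were lower (18.4% of all genes, median -0.89), in ABTAA mice 19 (12.5%, median -0.50), in Veptp WT mice 10 (8.38%, median -0.62) and in Veptp iECKO mice 5 (3.47%, median -0.15). Between ABTAA and IgG, and between Veptp iECKO and Veptp WT, none of the 70 was called (0% of all genes). This held in UUO, in CL and in the response.

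The genes that keep, transcribe and process mitochondrial DNA and its RNA formed the other nuclear list. Of 42 listed genes, 38 were tested in the Pdgfb experiment, 33 in the ABTAA experiment and 40 in the Veptp experiment. In Pdgfb WT mice 9 were lower in UUO (19.4% of all genes called lower) and 2 higher (17.9% called higher), with a median log2 fold change of -0.29. The lower genes included Hsd17b10, a subunit of the mitochondrial RNase P (-0.97 ± 0.12, adjusted p = 9e-07), Grsf1, an RNA-binding protein of mitochondrial RNA granules (-0.81 ± 0.13), Esrra, a nuclear receptor of mitochondrial gene programmes (-1.02 ± 0.20), Ppargc1a, its coactivator (-0.74 ± 0.16), and Lrpprc, which stabilises mitochondrial mRNAs (-0.51 ± 0.14). In IgG mice 11 were lower (18.4%, median -0.32), led by Grsf1 (-0.97 ± 0.13) and Esrra (-1.24 ± 0.22).

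In ABTAA mice 5 were lower (12.5%) and 1 higher (12.7%). The 5 were Grsf1 (-0.68 ± 0.14), Ppargc1a (-0.89 ± 0.21), Tfam, the packaging and transcription factor (-0.71 ± 0.17), Lrpprc (-0.56 ± 0.15) and Rrm2b, a ribonucleotide reductase subunit (-0.76 ± 0.25), while Rexo2, a mitochondrial oligoribonuclease, rose (0.68 ± 0.26). Rexo2 also rose in Pdgfb WT mice (0.73 ± 0.24), with Polg, the mitochondrial DNA polymerase (0.47 ± 0.18), and these genes, outside the rule for named genes, were named after their values were seen. In Veptp WT mice 5 were lower (8.38%), led by Esrra (-0.87 ± 0.18), and in Veptp iECKO mice 1 was, Esrra (-0.59 ± 0.19, adjusted p = 0.0497, 3.47% of all genes). No listed gene was called between ABTAA and IgG or between Veptp iECKO and Veptp WT, in UUO, CL or the response (0%). In Pdgfb iKO mice none passed with edgeR (2.40%), and the lowest adjusted p was that of Ppargc1a (-0.56 ± 0.17, adjusted p = 0.05005). In Pdgfb iKO UUO against Pdgfb WT UUO 6 were higher (12.0%), led by Hsd17b10 (0.59 ± 0.13, adjusted p = 0.0016) and Grsf1 (0.50 ± 0.13), and both passed in the interaction, 2 of 38 (6.66%).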

How the data were processed

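Whole-kidney RNA was sequenced with Smart-seq3, whose molecular identifiers (UMIs) mark single RNA molecules. The authors deposited raw counts per gene, and the submitters' processing notes name STAR 2.7.3a, mm10, UMI-tools 1.1.4 and Subread 1.4.6-p5 with featureCounts. For the annotation, the strand setting and multiply mapping reads, the choice is not given in the sources used here. Without a stated strand setting, mt-Nd5 and mt-Nd6 cannot be told apart over their shared bases, and the same holds for the overlapping pairs on 1 strand.

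Groups came from the labels. The 4 groups of each experiment were fitted together with edgeR 4.0.16 (R 4.3.3, limma 3.58.1): filterByExpr, TMM scaling, glmQLFit and glmQLFTest, with Benjamini-Hochberg adjustment over all genes tested in the experiment and a threshold of 0.05. The tests were two-sided, and 5 comparisons were made in each of 3 experiments, 15 in all. Levels are CPM scaled with TMM factors within an experiment, so levels are given per experiment. SE is the log2 fold change divided by the root of F. Levels per kb used library totals without TMM and GENCODE vM21 lengths. Sequences and windows came from GENCODE vM21 transcripts, aligned with biopython 1.88, and 31424 of 32245 rows matched that annotation. The fit was tested on simulated data. Depth ran from 172827 to 2341800 counts, and a count of 2, the lowest of mt-Nd4l, leaves wide counting error.

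Members, lists and tests were chosen with earlier results of these data known. Every mt- row is named, and of each nuclear list at most the 5 genes with the lowest adjusted p in a comparison. The design named 2 mitochondrial rRNA rows and tRNA rows, which were not analysed here. A single animal was the study's experimental unit, but the labels tie most kidneys to no animal, so both kidneys of 1 mouse entered as separate libraries. Same-numbered N and O libraries of the ABTAA experiment had correlated deviations from their group means (r = 0.397, 0.211 and 0.166 for numbers 9, 11 and 12, against -0.127 between different numbers), so these numbers were taken as pairs, an inference from the data. No IgG libraries share a number. Alternatives were DESeq2 1.42.0, edgeR's exact test, other filters and scalings, thinning, the name form as a covariate or within forms, a replicate block, and leaving out each library.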

Additional observations from a re-analysis of the deposited data

Results flagged for a closer look

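In 168 sets of values (a gene or the summed share in a group of 4 to 8 libraries), 11 had 1 library standing apart from its group by Dixon's criterion, and chance marks about 1 in 20 such sets, or 8.4 of 168. In ABTAA CL, replicate 4 was highest for mt-Nd3 (2897 CPM, others 955 to 1690 CPM) and mt-Nd4l (71.2 CPM, others 39.4 to 50.5 CPM). In ABTAA UUO, replicate 1 was highest for mt-Nd2 (3752 CPM), mt-Nd4l (50.1 CPM), mt-Nd5 (4404 CPM) and mt-Nd6 (1490.2 CPM). In Veptp WT UUO, replicate 8 was lowest for mt-Nd1, at 1535 CPM against 3235 to 4253 CPM, and it also had the lowest mitochondrial share, 1.07%. In Veptp iECKO CL, replicate 2 was lowest for mt-Co1, at 8856 CPM. In Pdgfb iKO CL, replicate 3 was highest for mt-Nd3, at 1921 CPM. In Pdgfb iKO UUO, replicate 1 was highest for mt-Atp8 (106.8 CPM, others 66.6 to 70.6 CPM) and mt-Nd3 (1908 CPM, others 1139 to 1261 CPM).

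The response to UUO differed between the libraries labelled Pdgfb iKO and Pdgfb WT for 11 genes by the interaction term in edgeR, with log2 differences of 1.17 for mt-Nd1, 1.23 for mt-Nd2, 1.23 for mt-Co1, 0.85 for mt-Co2, 0.78 for mt-Atp6, 0.83 for mt-Co3, 1.27 for mt-Nd3, 0.89 for mt-Nd4l, 1.23 for mt-Nd4, 1.00 for mt-Nd5 and 1.27 for mt-Cytb. The response and the comparison of the obstructed kidneys share their 8 UUO libraries, so they are not independent.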

How the results depend on the processing

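Counts below are of the 13 genes called. Apart from the name-form fits and those without TMM, no share of all genes called in the same setting is given beside them. They therefore do not show whether the 13 genes gained more calls than genes at large. In Veptp WT (1 called) there were 3 with DESeq2, 0 at a mean count of 20, 13 with the name form as a covariate, 5 among joined names, 8 among split names and 0 after thinning to the shallowest library. In Veptp iECKO (1 called) there were 3 with DESeq2, 2 with the exact test, 13 with the covariate, 0 among joined names, 13 among split names and 0 after thinning. In ABTAA (7 called) there were 13 with no filter, 12 with the name form as a covariate and 4 among joined names, and in Pdgfb iKO (0 called) 7 with no filter. The Pdgfb interaction (11 called) gave 5 without TMM and 7 after thinning. The cause of these changes was not tested. No gene called in the fit of all libraries reversed its direction under these alternatives. Of the 13 called in Veptp iECKO with the covariate, mt-Atp6 (0.01) and mt-Co3 (0.05) had log2 fold changes above 0 among joined names.

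In the Veptp experiment the replicate block gave 13 in Veptp WT and 10 in Veptp iECKO, without a share of all genes to set beside them. Same-numbered libraries there had correlations from 0.0632 (number 5) to 0.438 (number 3), against -0.0345 between different numbers. For numbers 3, 4, 7 and 8 the CL and UUO libraries have different genotype labels. Whether a number marks both kidneys of a mouse is therefore not settled here. Only split names carry such numbers, so the block also takes up the name form. In the ABTAA experiment it pairs N and O libraries and no IgG library, it gave 13 in IgG and 7 in ABTAA, and its ABTAA and IgG differences rest on ABTAA libraries with joined names against IgG libraries of both forms. With the block none of the 13 genes was called between treated and control groups (in UUO, unadjusted p was under 0.05 for mt-Co3, mt-Atp6, mt-Co1 and mt-Nd3 in ABTAA against IgG and for mt-Nd1, mt-Nd2, mt-Co1, mt-Nd4 and mt-Cytb in Veptp iECKO against Veptp WT, and in CL for mt-Co1 in ABTAA against IgG), and no other count changed by over 1.5 times.

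With 1 library left out, counts ran from 10 to 12 in IgG, 6 to 9 in ABTAA, 0 to 1 in Veptp WT, 1 to 2 in Veptp iECKO, 13 to 13 in Pdgfb WT, 0 to 8 in Pdgfb iKO, 13 to 13 between the Pdgfb UUO groups and 8 to 12 in the interaction, and stayed at 0 in the other 7 comparisons. Without TMM the median of all genes in Pdgfb WT moved from 0.04 to 0.40 and that of the 13 genes from -1.48 to -1.12, with 4336 genes called higher and 1166 lower in place of 1957 and 2119. Between the Pdgfb UUO groups the medians moved from -0.02 to -0.28 and from 1.09 to 0.82, with 667 higher and 2378 lower in place of 1315 and 719. Genes called higher and lower became 2390 and 1123 in IgG (from 1531 and 1759), 1559 and 825 in ABTAA (from 1219 and 1201), 1367 and 550 in Veptp WT (from 1195 and 999), 607 and 244 in Veptp iECKO (from 533 and 414), 560 and 156 in Pdgfb iKO (from 430 and 262) and 315 and 628 in the interaction (from 728 and 207). Counts per library as low as 2 limit mt-Nd4l.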
